A study of Arabidopsis thaliana with 12 samples.

Results

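The genes described here are *AUR1*, *AUR2*, *KN*, *HIK* and *CDKB2;2*, which act in mitosis and cytokinesis, in seedlings of *Arabidopsis thaliana* ecotype Ws measured on Affymetrix ATH1 arrays. They were found by symbol or locus, and each had 1 probe set, a group of oligonucleotides that reads 1 transcript, so they make up 5 of the 22810 probe sets on the array. All 5 passed the filter on low values and were tested. The 4 groups of 3 arrays each were whole 10-day-old seedlings by the labels, although the study's methods give a later age at harvest. The 5-AC group was wild-type Ws given 5-aza-2′-deoxycytidine at 20 mg/L in DMSO, a cytidine analogue that enters DNA and traps DNA methyltransferases. The TSA group was wild-type Ws given trichostatin A at 2.5 mg/L in DMSO, an inhibitor of histone deacetylases. The *ddm1* group carried a T-DNA insertion in the chromatin remodelling gene *DDM1*, 1 line in the Ws ecotype that was made homozygous, backcrossed and selfed, and it received DMSO alone. The Ws group was wild type and also received DMSO alone. Drugs or DMSO were added after 24 h to seedlings germinated in liquid 0.5× MS medium with 1% sucrose, under constant light at 21 °C, and the medium and its supplements were replaced after 5 days.

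In plants, a cell entering mitosis turns on a set of genes whose products build the spindle and then the phragmoplast, the array of microtubules that guides vesicles to the growing cell plate. *AUR1* and *AUR2* encode closely related Aurora kinases of the spindle and cell plate, which together orient formative divisions. *KN* (KNOLLE, named *SYP111* in RefSeq) encodes the syntaxin that fuses vesicles at the cell plate, *HIK* (HINKEL, also known as NACK1) encodes the kinesin that switches on a MAP kinase cascade at the phragmoplast, and *CDKB2;2* encodes a plant-specific cyclin-dependent kinase of the passage into mitosis. In a seedling these genes are known to be active in dividing cells, most of which lie in the meristems, young leaves and stomatal lineage.

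Their loci are AT4G32830 for *AUR1*, AT2G25880 for *AUR2*, AT1G08560 for *KN*, AT1G18370 for *HIK* and AT1G20930 for *CDKB2;2*. The platform's own annotation names the probe sets of *AUR1* and *AUR2*. The probe sets of *KN*, *HIK* and *CDKB2;2* are named only through the study's list of genes lower after 5-AC, which was made from these same arrays. *AUR1* is on that list too, but its name did not come from it. Its test after 5-AC therefore repeats a call made on these same arrays. The values of *KN*, *HIK* and *CDKB2;2* in any comparison with 5-AC are given as a description with no test, because their names came from that list. Sequences of the probes were not used here, and hybridisation between the *AUR1* and *AUR2* transcripts was not checked.

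Replicate arrays of a group correlated between 0.961 and 0.987 (Pearson's r across probe sets, which are not independent replicates). The *DDM1* probe set gave log2 values of 7.91, 7.63 and 7.59 in *ddm1* seedlings and 4.83, 4.64 and 5.21 in Ws seedlings, so it was higher in the mutant (limma, adjusted p = 1.90e-06). It was also higher in 5-AC seedlings, which carry the wild-type gene (7.04, 7.53 and 7.26). The study gives the insertion as a distance from the translation start, without a direction. The part of the transcript that the probe set reads is not given in the sources used here. These values therefore do not check the labels of the mutant. With 3 arrays in each group the number of arrays limits the precision.

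After 5-AC treatment all 5 genes had a lower mean than in any other group. *AUR1* and *AUR2*, the only ones not named through the study's list, fell 4.90-fold and 2.17-fold relative to Ws. All 5 genes were chosen with earlier results of these data known, so the tests of these 2 are not independent of that choice. For *AUR2* the highest 5-AC array (4.69) almost reached the lowest Ws array (4.70). Its call was lost under some alternatives, among them leaving out replicate 2 of 5-AC. In *ddm1* and TSA seedlings none of the 5 differed from Ws by the test, and their arrays overlapped those of Ws in each case. Values are log2 expression from gcRMA, a background correction and normalization for these arrays, so a difference of 1 is a doubling, and they are compared within a gene only. Because whole seedlings were used, fewer dividing cells and less RNA per dividing cell cannot be told apart.

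**Figure D1:**
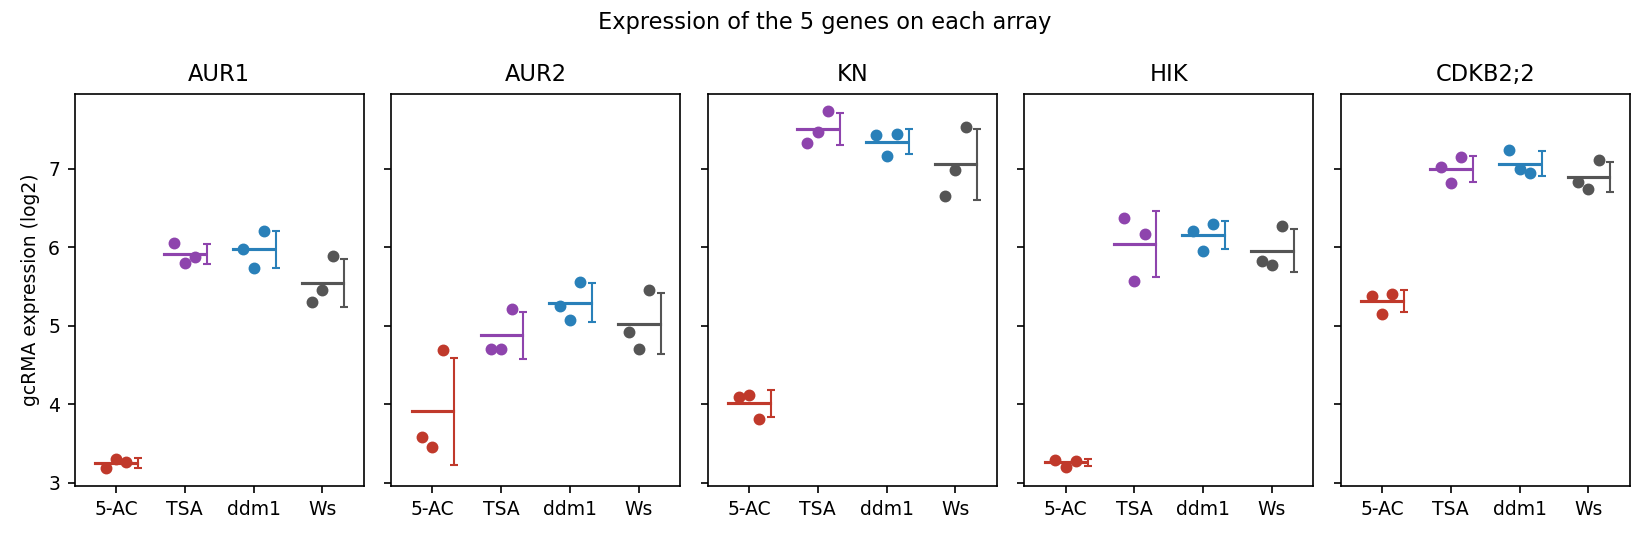
Expression (gcRMA, log2) of the 5 genes in 5-AC, TSA, *ddm1* and Ws seedlings. Points are arrays in order of replicate number, horizontal lines are group means, and the error bar beside each group is 1 SD over 3 arrays. The 5-AC arrays lie below all others in each gene, and replicate 3 of *AUR2* comes closest to the other groups.

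*AUR1* had log2 values of 3.19, 3.31 and 3.26 in 5-AC seedlings, 6.05, 5.80 and 5.88 in TSA seedlings, 5.98, 5.74 and 6.21 in *ddm1* seedlings and 5.30, 5.45 and 5.89 in Ws seedlings. The 3 arrays of 5-AC seedlings agreed closely (3.26 ± 0.06, SD, n = 3) and lay far below every other array, while the other groups overlapped one another. *AUR1* fell by 2.29 on the log2 scale in 5-AC seedlings relative to Ws (SE 0.173, 95% interval −2.67 to −1.91, limma, adjusted p = 1.35e-06).

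*AUR2*, the paralog, had 3.59, 3.45 and 4.69 in 5-AC seedlings, 4.70, 4.71 and 5.22 in TSA seedlings, 5.25, 5.07 and 5.56 in *ddm1* seedlings and 4.92, 4.70 and 5.46 in Ws seedlings. Replicates 1 and 2 of 5-AC were low, whereas replicate 3 lay only 0.00833 below the lowest Ws array, so the groups were separated by almost nothing. The mean was 3.91 ± 0.68 in 5-AC seedlings against 5.03 ± 0.39 in Ws seedlings (SD, n = 3 each), and the change was −1.12 (SE 0.321, 95% interval −1.82 to −0.41, limma, adjusted p = 0.0116). This call was lost without replicate 2 of 5-AC (−0.89, adjusted p = 0.0513) and with the methods' t-test (adjusted p = 0.159).

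*KN*, the cell plate syntaxin, had 4.10, 4.12 and 3.82 in 5-AC seedlings, 7.33, 7.47 and 7.73 in TSA seedlings, 7.43, 7.16 and 7.44 in *ddm1* seedlings and 6.65, 6.98 and 7.54 in Ws seedlings. Its 5-AC arrays were the lowest by a wide gap, and among the remaining arrays replicate 1 of Ws was the lowest and replicate 3 of TSA the highest. The mean was 4.01 ± 0.17 in 5-AC seedlings against 7.05 ± 0.45 in Ws seedlings (SD, n = 3 each), a difference of −3.04 or 8.22-fold, which was the largest among the 5 genes.

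*HIK*, the phragmoplast kinesin, had 3.296, 3.203 and 3.281 in 5-AC seedlings, 6.38, 5.57 and 6.17 in TSA seedlings, 6.21, 5.95 and 6.30 in *ddm1* seedlings and 5.82, 5.77 and 6.27 in Ws seedlings. The 5-AC arrays were again far below, and the TSA arrays held both the highest and the lowest of the other 9 values. Its mean was 3.26 ± 0.05 in 5-AC seedlings against 5.96 ± 0.28 in Ws seedlings (SD, n = 3 each), a difference of −2.70 or 6.48-fold.

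*CDKB2;2*, the mitotic kinase, had 5.38, 5.15 and 5.41 in 5-AC seedlings, 7.02, 6.82 and 7.15 in TSA seedlings, 7.24, 6.99 and 6.94 in *ddm1* seedlings and 6.82, 6.74 and 7.11 in Ws seedlings. All 5-AC arrays were lower than all others, and the remaining 9 arrays lay within a narrow band. The mean was 5.31 ± 0.14 in 5-AC seedlings against 6.89 ± 0.19 in Ws seedlings (SD, n = 3 each), a difference of −1.58 or 2.99-fold.

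For *AUR1* and *AUR2* the 3 arrays of 5-AC seedlings lay below all 3 Ws arrays, which held for 29.2% of all probe sets tested, and 2 of 2 were called lower, against 26.2% of all probe sets. The other 3 genes were chosen as lower on these arrays, so their place below Ws adds no count. All 5 genes were chosen with earlier results of these data known. The counts of 2 of 2, here and in the direct comparisons, are therefore a description. Calls were frequent in this comparison, with 30.8% of probe sets called higher, and 57.0% in either direction. Centring each array on 3 housekeeping genes (*SAND*, *UBC21* and *TIP41L*) gave a median over all probe sets of −0.21, where it had been 0.05, and turned the calls to 3848 higher and 6033 lower, where they had been 5296 higher and 4508 lower. Of the 3, *TIP41L* was itself called higher (1.14) and *UBC21* lower (−0.52) in 5-AC seedlings by limma. All 5 genes remained lower in 5-AC seedlings under this centring (*AUR1* −2.54, *AUR2* −1.37, *KN* −3.29, *HIK* −2.95 and the kinase gene −1.83) and under centring on array medians. All 5-AC values of the 5 genes lay above the 25th percentile of their array, the mark used here for the floor. Calls of each probe set as present were not available, so the size of the falls may depend on the background correction. Within a 5-AC array *AUR1* and *HIK* lay between the 34.3 and 35.8 percentiles of all probe sets. *KN* lay between 39.8 and 43.0, *AUR2* between 37.3 and 47.3 and the kinase gene between 52.0 and 54.6.

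The *ddm1* comparison asks whether a mutant that has lost methylation over generations shows the same low levels. None of the 5 genes was low there. The means in *ddm1* seedlings were each a little above those in Ws seedlings, but 0 of 5 genes were called (limma), against 1.56% of all probe sets tested. At an unadjusted threshold of 0.05 *AUR1* alone passed, where 605 of all probe sets tested were higher and 552 lower (limma). With the methods' t-test 0 of 5 passed at either threshold. *AUR1* averaged 5.98 ± 0.24 in *ddm1* seedlings and 5.55 ± 0.31 in Ws seedlings (SD, n = 3 each), a change of 0.43 (95% interval 0.05 to 0.81, limma, adjusted p = 0.62). For the other 4 genes the changes were 0.17 for *CDKB2;2* (95% interval −0.16 to 0.50), 0.20 for *HIK* (−0.27 to 0.66), 0.27 for *AUR2* (−0.44 to 0.98) and 0.29 for *KN* (−0.18 to 0.76). The arrays of *ddm1* and Ws overlapped in each gene, where 6.49% of all probe sets had every *ddm1* array above those of Ws and 10.8% every one below. The 5-AC and *ddm1* comparisons share the Ws arrays, on which 3 of the 5 genes were partly chosen.

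In TSA seedlings no difference from Ws passed the test. None of the 5 genes was called (0 of 5 by limma, against 14.4% of all probe sets tested), none passed an unadjusted threshold of 0.05, and the methods' t-test gave 0 of 5 at either threshold. *KN* averaged 7.51 ± 0.20 in TSA seedlings and 7.05 ± 0.45 in Ws seedlings (SD, n = 3 each), a change of 0.45 (95% interval −0.02 to 0.92, limma, adjusted p = 0.191). Without replicate 3 of Ws, its highest Ws array, *KN* passed the test (0.70, adjusted p = 0.0323). *AUR1* changed by 0.36 (−0.02 to 0.74), *CDKB2;2* by 0.10 (−0.23 to 0.43), *HIK* by 0.08 (−0.38 to 0.54) and *AUR2* by −0.15 (−0.86 to 0.56), and these intervals all hold 0. The arrays overlapped in each gene, where 19.3% of all probe sets had every TSA array above those of Ws and 15.4% every one below.

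**Figure D2:**
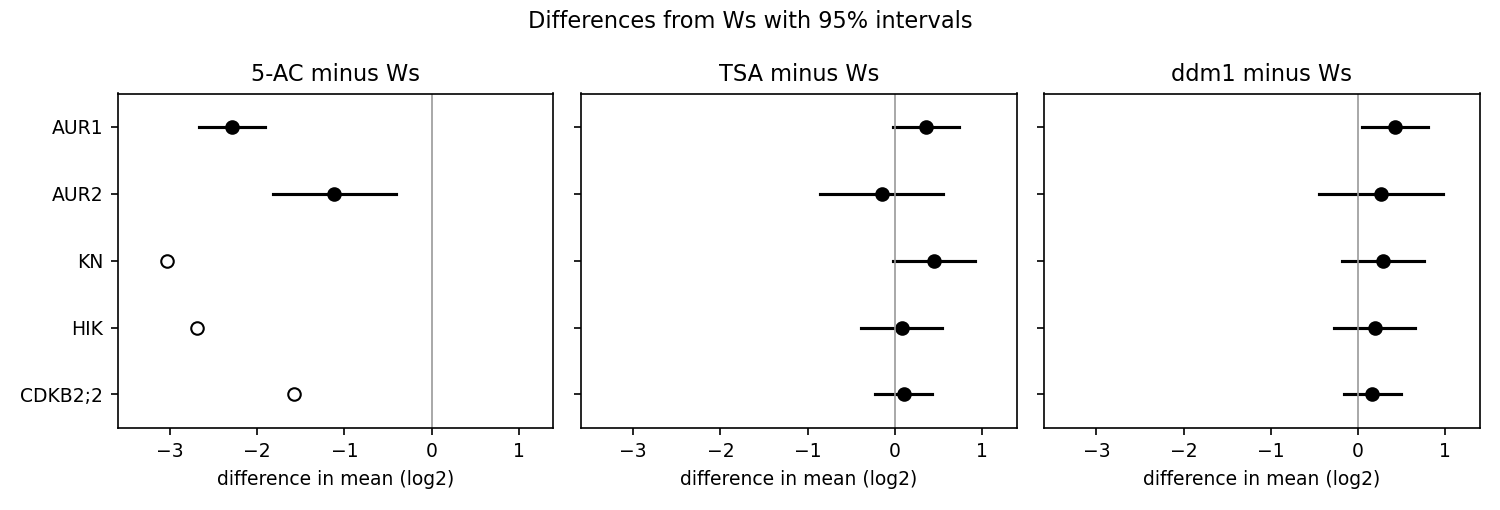
Differences in mean log2 expression from Ws for 5-AC, TSA and *ddm1* seedlings. Filled points are limma estimates with 95% intervals as bars, and open points are the 3 genes whose 5-AC difference is a description with no test. *KN* lies farthest from 0 after 5-AC at −3.04, and in TSA and *ddm1* seedlings every estimate lies between −0.15 and 0.45.

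The direct comparisons gave the same split of groups. *AUR1* was lower in 5-AC than in *ddm1* seedlings by −2.72 (adjusted p = 4.31e-07) and *AUR2* by −1.39 (adjusted p = 0.00349, limma), so 2 of 2 were called lower, against 25.7% of all probe sets. For both the 5-AC arrays lay below the *ddm1* arrays, which held for 29.1% of all probe sets. The 3 genes chosen for low values on these 5-AC arrays differed by −3.33 for *KN*, −2.89 for *HIK* and −1.75 for the kinase gene. In TSA relative to 5-AC seedlings *AUR1* was higher by 2.65 (adjusted p = 5.17e-07) and *AUR2* by 0.97 (adjusted p = 0.0252, limma), 2 of 2 called higher against 23.8% of all probe sets. For both the TSA arrays lay above the 5-AC arrays, which held for 28.2% of all probe sets, and the 3 chosen genes differed by 3.49 for *KN*, 2.78 for *HIK* and 1.68 for the kinase gene. For *AUR2* the nearest TSA and 5-AC arrays were 0.0126 apart, and the call was lost without replicate 1 or 2 of 5-AC, without replicate 3 of TSA, with only those 2 groups in the fit (adjusted p = 0.0690) and with the methods' t-test (adjusted p = 0.206). The methods' t-test did not call *AUR2* between 5-AC and *ddm1* seedlings either (adjusted p = 0.117). Since these comparisons use the same 5-AC arrays, they are not separate evidence.

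TSA and *ddm1* seedlings were not told apart by any of the 5 genes (0 of 5 called by limma, 0 at an unadjusted threshold of 0.05 and 0 by the methods' t-test, against 17.8% of all probe sets called). Their differences, TSA minus *ddm1*, were −0.42 for *AUR2* (95% interval −1.13 to 0.29), −0.11 for *HIK* (−0.58 to 0.35), −0.07 for *AUR1* (−0.45 to 0.32), −0.06 for *CDKB2;2* (−0.39 to 0.27) and 0.16 for *KN* (−0.31 to 0.63). Their arrays overlapped in each gene, where 26.4% of all probe sets had every TSA array above those of *ddm1* and 18.3% every one below. In the order of group means 5-AC came last for all 5 genes. *ddm1* was first for all but *KN*, for which TSA was, but no difference among TSA, *ddm1* and Ws was called by limma.

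Within a group, several of the 5 genes had their highest or lowest value on the same array. Replicate 3 was the highest Ws array for 5 of 5 genes, and it was the highest Ws array for 33.3% of all probe sets tested. Replicate 2 was the lowest *ddm1* array for 4 of 5 genes, against 38.2% of all probe sets, and replicate 3 the highest for 4 of 5, against 29.2%. In TSA seedlings replicate 3 was the highest for 3 of 5 (39.4%) and replicate 2 the lowest for 3 of 5 (29.2%). In 5-AC seedlings replicate 2 was the lowest for 3 of 5 (28.9%), and no array was the highest for more than 2. The 5 genes share each array, so this is a description of single seedling samples.

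Likeness of pattern was measured as the root-mean-square difference of log2 values over the 12 arrays, each gene centred on its own mean. Among the 5 genes *AUR1* and *HIK* were closest (0.205) and *AUR2* and *KN* farthest apart (1.02). *AUR2* was closer to *CDKB2;2* (0.396) than to its paralog *AUR1* (0.711). The measure depends on the size of the 5-AC difference from Ws, for which 3 of the 5 genes were chosen. That difference was −1.12 in *AUR2*, −1.58 in *CDKB2;2*, −2.29 in *AUR1*, −2.70 in *HIK* and −3.04 in *KN*. Of the platform-named genes *TOPII*, the topoisomerase that untangles sister chromatids, was closest to *HIK* (0.187), followed by AT5G50740 (0.197) and *AUR1*. The closest to *AUR2* was *PRL*, which encodes the MCM7 subunit of the replicative helicase (0.182), and AT1G35780 (0.217) and AT5G67460 (0.226) came next. For *AUR1* they were AT3G51280 (0.211), AT3G02640 (0.247) and AT5G17160 (0.252). AT3G02640 was also the closest to *KN* (0.222), ahead of *iqd21*, an IQ-domain gene (0.263), and AT3G15680 (0.307). Closest to *CDKB2;2* were AT3G27390 (0.173), AT1G32190 (0.178) and AT5G50740 (0.183). The gene AT5G50740 was measured by a different probe set in each case. The centred 5-AC mean was −1.99 for the probe set near *HIK* and −1.34 for the other. Before centring, the 5-AC means of *TOPII* (2.39) and AT5G67460 (2.65) lay under the 25th percentile of the 5-AC arrays (2.66 to 2.68).

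**Figure D3:**
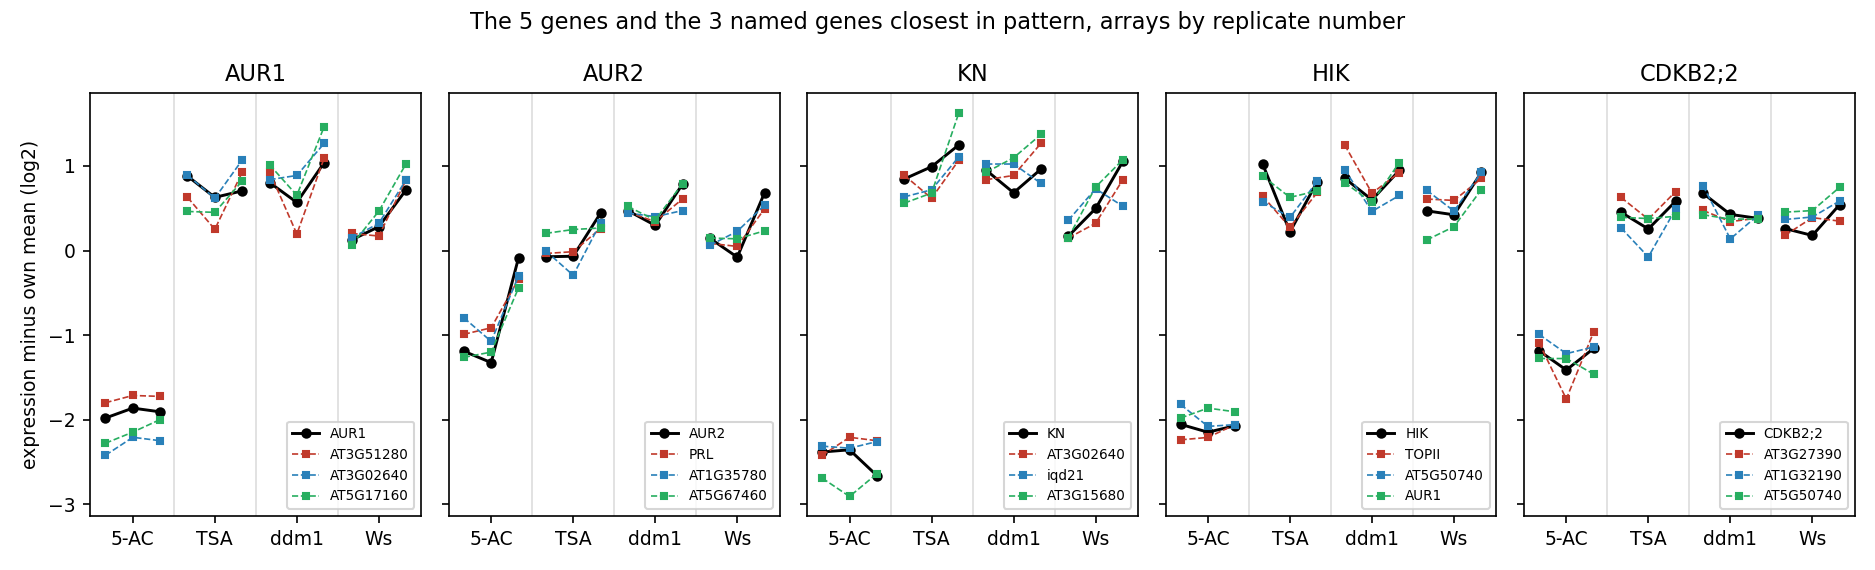
Log2 expression of each of the 5 genes (black circles) and of the 3 platform-named genes closest to it (coloured squares), each centred on its own mean over 12 arrays, with arrays in order of replicate number in 5-AC, TSA, *ddm1* and Ws seedlings. *PRL* follows *AUR2* through its higher 5-AC replicate 3, and *TOPII* follows *HIK* with a root-mean-square difference of 0.187.

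The wider cell division lists held 117 genes in 9 groups by role, of which 20 are named by the platform and 16 of these were tested. In 5-AC relative to Ws seedlings 5 of the 16 were called lower and 2 higher (limma), with a median change of −0.06, where the median of all probe sets was 0.05. Without *AUR1* and *AUR2*, 3 of 14 were lower and 2 higher (median −0.03), where 26.2% of all probe sets were called lower and 30.8% higher.

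The largest change among them was in *3xHMG-box2*, which encodes a protein that binds condensed chromosomes in mitosis. It had 2.50, 2.40 and 2.90 in 5-AC seedlings against 6.42, 6.63 and 7.16 in Ws seedlings, and it fell by 4.14 (adjusted p = 1.19e-07, limma). Its lowest 5-AC array lay at the 16.1 percentile of all probe sets, near the floor, so the size of the fall depends on the background correction. They were separated from Ws by a wide gap, while its relative *3xHMG-box1* was not called (0.48, adjusted p = 0.0669). *UBC20*, a ubiquitin-conjugating enzyme of the anaphase-promoting complex, had 5.66, 5.99 and 4.92 in 5-AC seedlings against 6.812, 6.998 and 7.305 in Ws seedlings (−1.51, adjusted p = 3.92e-04). *BUB3.1*, a spindle checkpoint protein, had 4.51, 4.51 and 4.08 in 5-AC seedlings against 5.57, 5.38 and 5.49 in Ws seedlings (−1.11, adjusted p = 7.00e-05). In both the 5-AC arrays were all below the Ws arrays. With the methods' t-test *UBC20* lost its call (adjusted p = 0.073).

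Other genes of the same machinery were not called. *AUR3*, another Aurora kinase, which sits at centromeres, had 3.08, 3.42 and 3.50 in 5-AC seedlings against 3.61, 3.37 and 3.11 in Ws seedlings. These arrays overlapped, and the change was −0.03 (95% interval −0.57 to 0.50, adjusted p = 0.929). *KEU*, the partner protein of the *KN* syntaxin, had 8.62, 8.57 and 8.61 in 5-AC seedlings against 8.58, 8.23 and 8.19 in Ws seedlings, a change of 0.27 (−0.06 to 0.59, adjusted p = 0.149). *SCL28*, a regulator of mitotic transcription, lay lower on all 5-AC arrays but missed the threshold (−0.63, limma adjusted p = 0.0501). It was called under 6 of the 13 alternatives that tested it. Its 5-AC arrays lay between the 26.4 and 27.7 percentiles, near the floor. The kinesin gene *PAKRP1L* (−0.04), the anaphase-promoting complex genes *HBT* (−0.08) and *UBC19* (0.17), the regulator *TSO1* (−0.31) and the cyclin-dependent kinase inhibitor *SIM* (0.45) were not called.

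The 2 that were called higher were *CENH3*, the centromeric histone, and *TPLATE*, a protein of endocytosis at the membrane and cell plate. *CENH3* had 3.22, 4.18 and 4.17 in 5-AC seedlings against 2.95, 2.66 and 2.70 in Ws seedlings (1.09, limma adjusted p = 0.0108). Its Ws arrays lay between the 25.4 and 30.8 percentiles of all probe sets, near the floor. The size of its rise therefore depends on the background correction. *TPLATE* had 7.54, 7.68 and 7.31 in 5-AC seedlings against 6.63, 6.82 and 6.80 in Ws seedlings (0.76, adjusted p = 0.00308). On both the 5-AC arrays were all above the Ws arrays, and both kept their sign when arrays were centred on housekeeping genes. With the methods' t-test *CENH3* lost its call (adjusted p = 0.135).

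In *ddm1* seedlings 0 of the 16 were called by limma, against 1.56% of all probe sets, and 0 by the methods' t-test. At an unadjusted threshold of 0.05, 2 of the 16 passed by limma, both higher. At that threshold 605 of all probe sets tested were higher and 552 lower. The median change of the 16 in *ddm1* seedlings was 0.13, against −0.03 for all probe sets. In TSA seedlings 1 of 16 was called, against 14.4% of all probe sets. This was *TPLATE*, with 6.29, 5.78 and 6.45 in TSA seedlings against 6.63, 6.82 and 6.80 in Ws seedlings. Its TSA arrays were all below those of Ws (−0.57, adjusted p = 0.0493), and the call was lost under 10 of the 14 alternatives tried, among them 5 of the 6 that left out 1 array. The median change of the 16 in TSA seedlings was −0.04, against 0.02 for all probe sets.

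A further 21 cell division genes had a probe set named through the study's lists of genes higher or lower after 5-AC. They were chosen on these arrays, so their direction after 5-AC is a description, with 9 lower and 12 higher. Among the lower were *CSLD5*, a cellulose synthase-like gene of the cell plate (−2.41), the cyclins *CYCB1;4* (−2.05, a lower limit of the fall because its 5-AC arrays were at the floor) and *CYCA1;1* (−2.03), the inhibitor *KRP2* (−1.54) and the spindle assembly gene *TPX2* (−1.46). On the 5-AC arrays *CYCA1;1* lay between the 20.4 and 38.1 percentiles and *TPX2* between 24.0 and 30.5, near the floor. The cyclins *CYCB1;1* (6.16), *CYCA2;2* (3.04) and *CYCA1;2* (2.86) were among the higher. The rise of *CYCA1;2* is a lower limit, because its Ws arrays were at the floor. The transcription factor *MYB3R1* (1.20), a regulator of mitotic genes, was also higher. Of the 8 of these genes in the list of D-type cyclins, RBR and E2F, 6 were higher and 2 lower.

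*CYCB1;1*, a mitotic cyclin that is also known to be induced by DNA damage, had 11.33, 11.65 and 11.95 in 5-AC seedlings against 5.32, 5.39 and 5.73 in Ws seedlings. Its relative *CYCB1;4* had 2.12, 1.99 and 1.99 in 5-AC seedlings against 3.98, 4.18 and 4.08 in Ws seedlings. The TSA comparison shares the Ws arrays on which these genes were partly chosen. In it *CYCB1;1* was higher than in Ws (6.91, 6.80 and 6.29, change 1.19, limma adjusted p = 0.0044), and so was *CYCD3;3*, a D-type cyclin (6.63, 6.61 and 6.70 in TSA seedlings against 5.22, 5.42 and 5.55 in Ws seedlings, change 1.25, adjusted p = 2.19e-04). These were the only 2 of the 21 called in TSA seedlings by limma, against 14.4% of all probe sets, and the methods' t-test called 0. In *ddm1* seedlings 0 of 21 were called by limma, against 1.56% of all probe sets, and 0 by the methods' t-test. At an unadjusted threshold of 0.05, 4 of the 21 passed by limma, all higher. At that threshold 605 of all probe sets tested were higher and 552 lower.

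**Figure D4:**
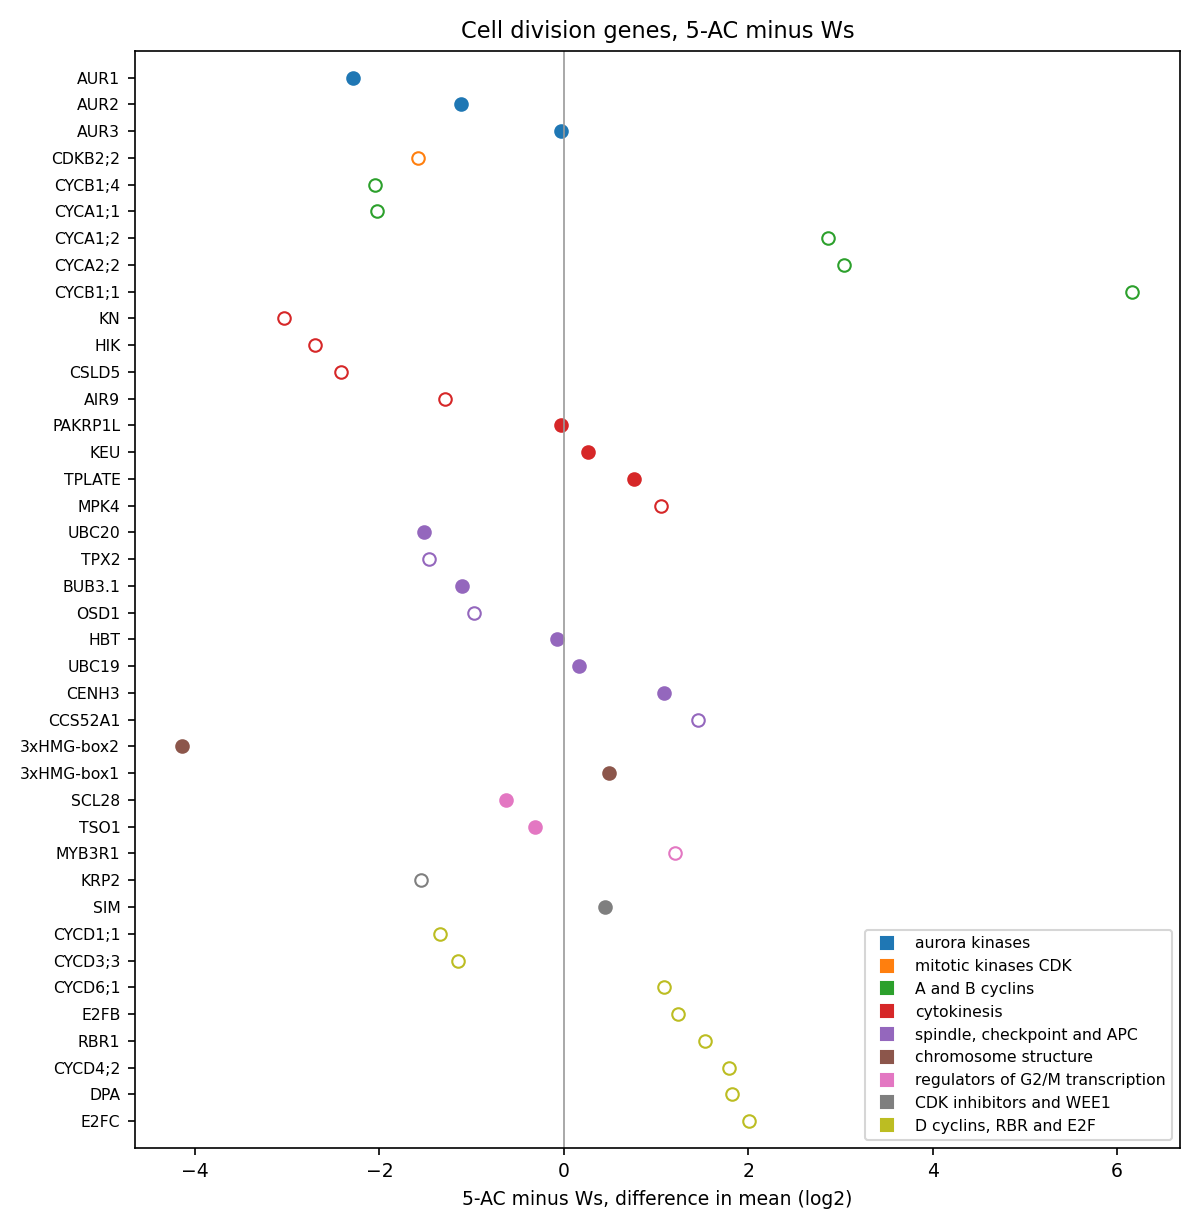
Difference in mean log2 expression, 5-AC minus Ws, for 40 cell division genes grouped by role and shown by colour. Filled points are the 16 genes named by the platform, and open points are the 24 named only through the study's lists, which were chosen on these arrays. *3xHMG-box2* is lowest at −4.14 and the highest gene, a B-type cyclin, is at 6.16, and filled points lie on both sides of 0.

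Markers of cell types that divide, and of differentiated cells, also moved after 5-AC. The stomatal lineage gene *FAMA* fell by 1.89 and *SPCH* fell by 0.70 in 5-AC seedlings relative to Ws, and *TMM*, which is named only through the study's lists, differed by −1.57. Of the 8 genes of this list 4 have a named probe set, and the summed level of *SPCH*, *FAMA*, *TMM* and *MUTE* lay between 4.38 and 4.81 (log2) in 5-AC seedlings, 6.37 and 6.60 in TSA seedlings, 6.16 and 6.33 in *ddm1* seedlings and 5.86 and 6.06 in Ws seedlings. In TSA seedlings *SPCH* (0.77, adjusted p = 0.0028) and *TMM* (1.37, limma adjusted p = 8.79e-04) rose, while *FAMA* lay below Ws on all 3 TSA arrays but was not called (−0.39, adjusted p = 0.251). *UPB1*, a transcription factor of the root transition zone, fell by 3.36 in 5-AC and by 2.50 in TSA seedlings. Of the markers of differentiated tissue, *RCA* of photosynthesis fell by 2.10 in 5-AC seedlings, *EXPA7* of root hairs fell by 2.40 and *PYK10* of the root and hypocotyl fell by 0.52, so 3 of 3 were called lower (limma), against 26.2% of all probe sets. *EXPA7* and *SPCH* lay under the 25th percentile on every 5-AC array, so their falls are lower limits. On the same arrays *FAMA* lay between the 23.6 and 35.4 percentiles and *TMM* between 11.1 and 31.1, near the floor. These sums are set mostly by the brightest probe sets. The summed level of *RCA*, *EXPA7* and *PYK10* lay between 12.6 and 13.4 in 5-AC seedlings and between 14.1 and 14.5 in Ws seedlings. Of the shoot meristem list only *CLV3* has a named probe set, at about the floor on all arrays (2.09 to 2.15), and *BBM* of the root meristem and *MUTE* of the stomatal lineage did not pass the filter on low values. The part of these cell types in the levels of the 5 genes was not tested.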

How the data were processed

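Total RNA of whole seedlings was hybridised to 12 ATH1 arrays, 3 in each of 4 groups. The authors deposited log2 values that they had made with GCRMA (per the labels and the study's methods), which corrects background by probe sequence, quantile-normalizes arrays and gives 1 value per probe set. All columns were used (0 unmapped). Arrays give no counts, so their number limits the precision. The 64 control probe sets were dropped. The others were ranked by their second-highest array, and the top 17204 were kept, as many as the methods counted as present (lowest value kept 2.98). A probe set high in 1 group can pass through that group alone.

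Groups were compared in 6 pairs by limma (version 3.58.1, R version 4.3.3), in a model with a mean for each group and moderated variances over the 12 arrays. Two-sided p-values were adjusted by Benjamini-Hochberg over these 17204, at a threshold of 0.05. The fit was tested on simulated data. Tables and figures were made with pandas 2.3.3, numpy 2.4.6 and matplotlib 3.10.9 in Python 3.11.15. The methods' t-test (two-sided, unequal variances), a trended and robust eBayes, only the 2 groups compared, no filter or a stricter one, 2 other centrings, leaving out each array and a replicate block were the alternatives. Exact permutation of 3 against 3 arrays cannot go below p = 0.1 and was not used.

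Genes were named by the platform annotation (13513 probe sets of 1 gene) or, where it names none, by the study's lists (1724), of which the copies used here hold only a part. Listed genes with no named probe set, such as *CDKA;1*, *CDKB2;1* and most B-type cyclins, were not analysed here. Genes in the text are the 5 genes, their nearest paralogs and partners, the 3 platform-named list members with the largest change in each comparison with Ws, and the 3 genes closest in pattern. *CSLD5*, *TPX2* and the A-type and D-type cyclins fall outside this rule and were chosen after their values were seen. The 5 genes and all lists, of cell division by role, cell type markers and housekeeping, were chosen with earlier results of these data known. The replicates are called biological in the methods.

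The labels number replicates 1 to 3 in each group. Deviations from group means of same-numbered arrays correlated at 0.41, 0.52 and 0.23 for *ddm1* and Ws, 0.26, 0.12 and 0.11 for 5-AC and *ddm1*, and 0.13, 0.13 and 0.18 for TSA and 5-AC, so the numbers were taken to pair these groups. For 5-AC and Ws they were 0.19, −0.06 and −0.08, and the numbers were not taken to pair them, nor TSA with Ws or *ddm1*.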

Additional observations from a re-analysis of the deposited data

How the results depend on the processing

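Among the values of the 5 genes under the alternatives, 397 kept their direction and their side of the threshold or, untested, moved by under 1 SD. Of the rest, 8 lost a call, 1 gained a call, 7 changed sign and 7 untested values moved by 1 SD or more. With the methods' t-test 1 of 2 genes was called in 5-AC minus Ws, in 5-AC minus *ddm1* and in TSA minus 5-AC, where limma called 2, and *AUR2* was lost each time. With only 2 groups in the fit 1 of 2 was called in TSA minus 5-AC. Leaving out 1 array gave 1 to 2 genes called in 5-AC minus Ws, 1 to 2 in TSA minus 5-AC and 0 to 1 of 5 in TSA minus Ws. *AUR1* then lay between −2.42 and −2.12 and *AUR2* between −1.51 and −0.89 in 5-AC minus Ws. Of the 16 cell division genes the methods' t-test called 4 in 5-AC minus Ws, where limma called 7, and *AUR2*, *UBC20* and *CENH3* were lost. Without the filter *BUBR1*, a spindle checkpoint protein below the filter, made 1 call in *ddm1* minus Ws (0.35, limma adjusted p = 0.00895). The call of *TPLATE* in TSA minus Ws gave way to 0 calls with the methods' t-test, with only 2 groups, without the filter, with array medians and with the replicate block, and leaving out 1 array gave 0 to 1, with 0 in 5 of 6.

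With the replicate number as a block, 2 of 2 genes were called in 5-AC minus Ws, 5-AC minus *ddm1* and TSA minus 5-AC. Elsewhere 0 of 5 were called, so no call of the 5 genes changed. Of the 16 cell division genes 8 were called in 5-AC minus Ws with the block. Calls were frequent there, with 5486 of all probe sets tested higher and 4719 lower, against 5296 and 4508 without the block. *AUR2* in 5-AC minus Ws had an adjusted p of 4.13e-04 in the limma fit with the block. The replicate numbers were not taken to pair these 2 groups, so this value adds no support for the call.

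Uncalled differences near 0 changed sign when 1 array was left out. In TSA minus Ws *AUR2* ranged between −0.32 and 0.067 (without replicate 3 of Ws), and *HIK* between −0.088 (without replicate 1 of TSA) and 0.31, with −0.010 without replicate 2 of Ws. In TSA minus *ddm1* *AUR1* ranged between −0.18 and 0.052 (without replicate 3 of *ddm1*), *HIK* between −0.28 and 0.12 (without replicate 2 of TSA) and *CDKB2;2* between −0.14 and 0.027 (without replicate 1 of *ddm1*), with 0.023 without replicate 2 of TSA. The number of all probe sets called by the methods' t-test was 4554 in 5-AC minus Ws, 35 in *ddm1* minus Ws, 8 in TSA minus Ws, 5166 in 5-AC minus *ddm1*, 3357 in TSA minus 5-AC and 348 in TSA minus *ddm1*, where limma called 9804, 269, 2477, 9710, 9132 and 3059. In TSA minus Ws it was 1643 with only 2 groups in the limma fit, 1545 without replicate 2 of TSA and 1578 without replicate 1 of Ws, and in TSA minus *ddm1* 2011 without replicate 3 of *ddm1*. The cause of these changes was not tested.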
